A study of Mus musculus with 6 samples.

Results

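PD-1 is the inhibitory receptor that T cells put on their surface after activation, and this account follows its transcript and those of 4 molecules around it in single cells from mice with ovarian tumors. The genes were Pdcd1 (PD-1), Cd274 (PD-L1) and Pdcd1lg2 (PD-L2), the ligands of PD-1, and Cd80 and Cd86, the B7 molecules read by CD28 and CTLA-4. They were picked by symbol, and all 5 were found among the 32285 genes listed. Unique molecular identifiers (UMIs, each standing for 1 captured transcript) were summed per library and cell class and divided by all UMIs of that class, which gives counts per 1000000 UMIs (CPM).

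PD-1 carries motifs in its tail that recruit the phosphatases SHP-2 and SHP-1 (Ptpn11 and Ptpn6) when a ligand is bound, and these act on the signals of the T cell receptor and of CD28. PD-L1 is made by many cell types and is induced by interferon-gamma through JAK kinases and IRF1, whereas PD-L2 is largely a product of dendritic cells and macrophages. CD80 and CD86 costimulate T cells through CD28 and are bound more tightly by CTLA-4, and CD80 also binds PD-L1 on the same cell.

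The series holds 6 droplet libraries of female C57BL/6 mice, each library being 1 mouse. By the study's methods the mice were aged 6 to 8 weeks when tumor cells were injected. All carried KPCA cells, an ovarian tumor line with intact homologous recombination repair, placed in the ovarian bursa, and all were killed on day 30. The control mouse received solvent and rat IgG. The others received 2-deoxy-D-glucose (2DG, a glucose analog used here against branched N-glycans, 500 mg per kg every 2 days from day 9), 2F-peracetyl-fucose (2FF, a fucosylation inhibitor given every 2 days, with tumor cells pretreated for 3 days), anti-PD-L1 antibody (5 mg per kg a dose for 3 weeks after day 9), 2DG plus anti-PD-L1, or 2FF plus anti-PD-L1. The labels name lymph node as the tissue and the deposited design speaks of young and aged mice, whereas the methods describe tumors of young mice, so the tissue is given here only by what the cells expressed. With 1 mouse per treatment no difference between treatments could be tested, and the spread between mice of a group is unknown. Every interval and floor given covers counting error only.

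Of 57078 barcodes, 51633 had at least 250 genes and at most 5% mitochondrial UMIs, and 41039 of these were assigned to a class by marker genes. Median depth was 6196 to 7732 UMIs per cell in the 6 libraries, and no pair of libraries shared more than 0.345% of the smaller library's barcodes. Classes are called by the markers that set them: 8050 CD8 T-like, 2077 conventional CD4 T-like (Cd4 without Foxp3), 1284 Treg-like, 1362 NK-like, 1377 B-like, 4356 neutrophil-like, 10902 classical monocyte-like, 1415 non-classical monocyte-like, 7866 macrophage-like, 431 type 1, 780 type 2 and 684 migratory dendritic-like cells. Among the 10 leading genes of a class 1 to 5 were its own markers and 0 those of another class. The gate favors this outcome, since it assigns cells by these markers, so it is no separate evidence for the classes. Of the assigned cells 12.4% lay near a cut of the gate (41.4% of type 2 dendritic-like cells and 52.1% of the 73 keratin-positive cells described below). The values are transcripts and say nothing of protein at the cell surface. The control library stood apart in its makeup. It held 2855 of the neutrophil-like cells against 217 to 439 in each treated library, and 120 CD8 T-like cells against 1146 to 2054. Its NK-like cells numbered 22 and were left out of means, as were 2 libraries for type 1 dendritic-like cells, because a class needed 50 cells in a library.

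Cd274 and Pdcd1lg2 are neighbors, and their promoters are shown because both transcripts were lower in control than in treated macrophages, as described below. With 2DG or 2FF added to the antibody, the ratios of Cd274 and Pdcd1lg2 had opposite signs there. In the GRCm38 annotation Cd274 lies at chr19:29367455-29388095 and Pdcd1lg2 at chr19:29410919-29471161, both on the plus strand, with a gap of 22823 bp that holds 0 annotated genes. Pdcd1 lies at chr1:94038305-94052553 on the minus strand. Cd80 (chr16:38455561-38496335, plus strand) and Cd86 (chr16:36603869-36666081, minus strand) share a chromosome but stand 1789479 bp apart with 25 protein-coding genes between them. A930007I19Rik, an antisense gene that overlaps Pdcd1lg2, has its own row in the files. The 250 bases before each start (RefSeq, GRCm38.p6), 5′ to 3′ on the plus strand, read as follows, for chr19:29367188-29367437 and chr19:29410669-29410918.
Cd274: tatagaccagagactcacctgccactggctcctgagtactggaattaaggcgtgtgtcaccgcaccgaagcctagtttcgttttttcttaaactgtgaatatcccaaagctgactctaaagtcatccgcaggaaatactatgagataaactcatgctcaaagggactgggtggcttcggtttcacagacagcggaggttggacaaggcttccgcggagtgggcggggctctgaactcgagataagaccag
Pdcd1lg2: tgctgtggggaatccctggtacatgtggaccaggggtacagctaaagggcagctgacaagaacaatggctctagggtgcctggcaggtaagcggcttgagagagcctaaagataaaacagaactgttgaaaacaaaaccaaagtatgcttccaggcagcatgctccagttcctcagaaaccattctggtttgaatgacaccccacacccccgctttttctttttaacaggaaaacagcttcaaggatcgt
Motifs tied to interferon were searched on both strands of these windows and of those of Pdcd1 and Cd80. The core of the interferon-stimulated response element (GAAA, any 2 bases and GAAA, or the reverse complement TTTC, any 2 bases and TTTC) had 0 matches in the 4 windows and occurred in 2.98% of 32851 mouse promoters. The interferon-gamma activated site (TTCNNNGAA) also had 0 matches and occurred in 7.02% of promoters. No capitals are used because nothing matched, which says only that these letters are not in these windows. Cd86 had no entry.

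**Figure D1:**
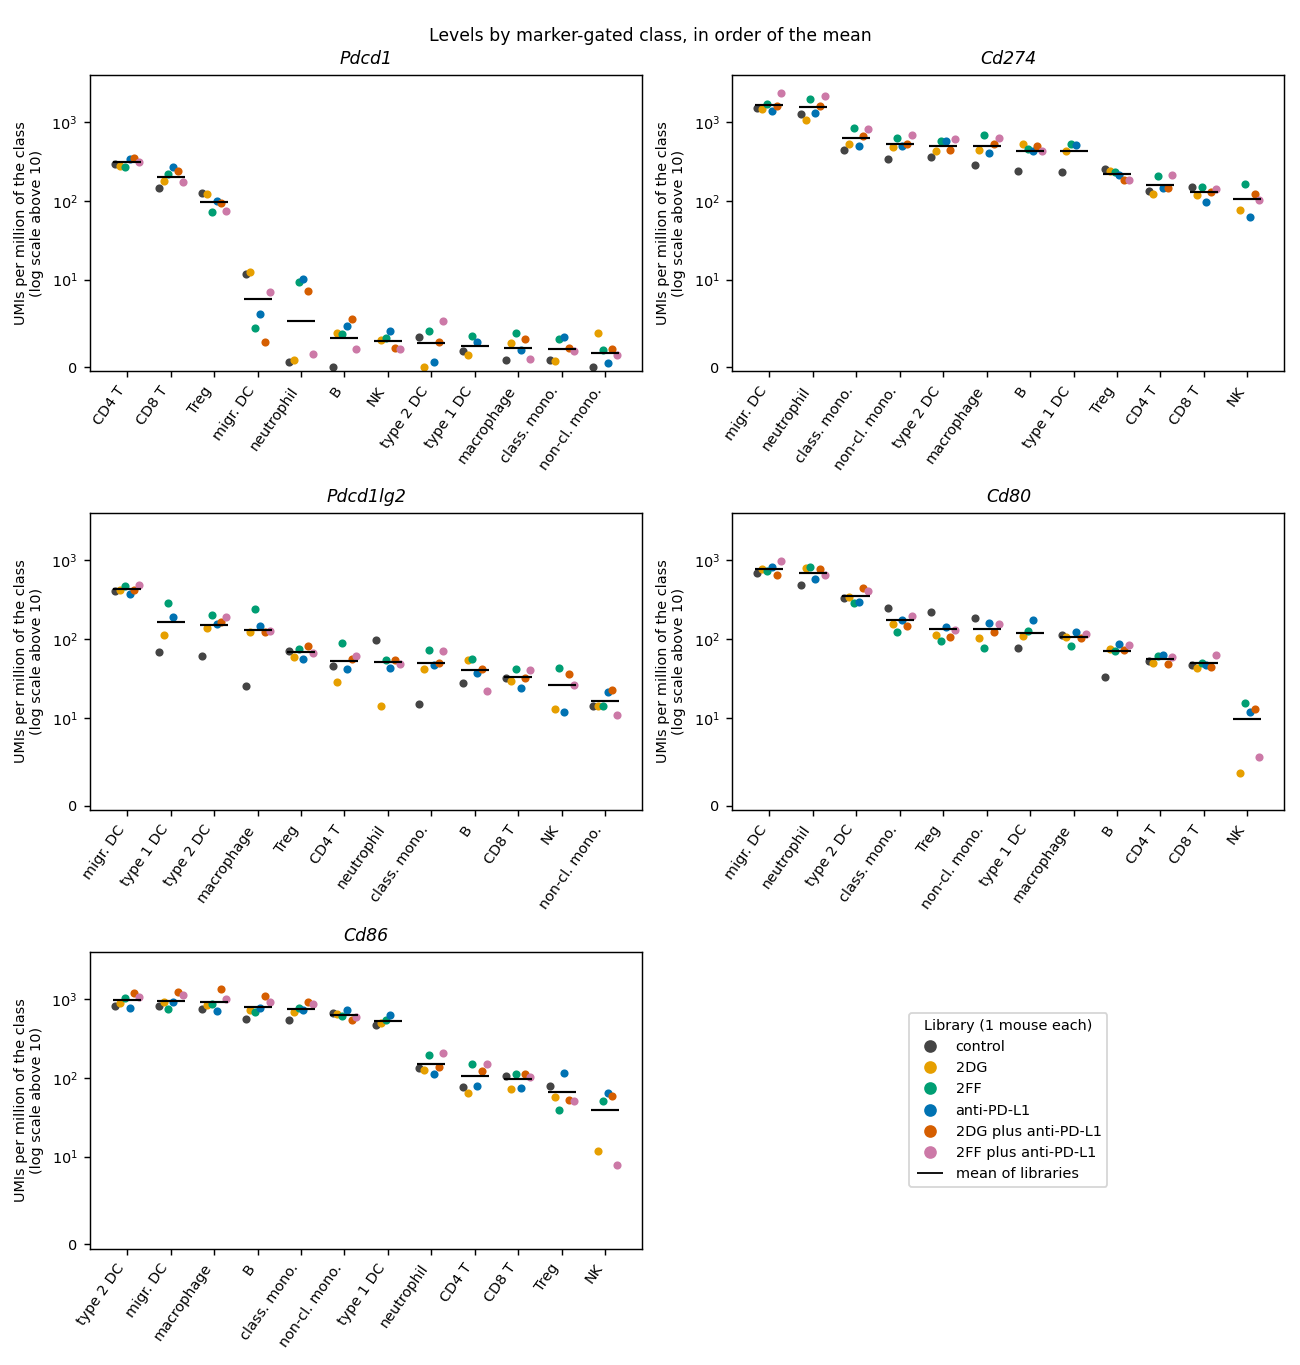
Level of each gene in 12 marker-gated classes, in CPM of the class on an axis that is linear below 10 and logarithmic above it. Each point is 1 library (1 mouse) and each bar is the mean of libraries; Pdcd1 stands high in 3 T cell classes, whereas Cd274 spans all classes with migratory dendritic-like and neutrophil-like cells on top.

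Pdcd1, the receptor, was a transcript of T cells. Its mean over libraries was 306 CPM ± 34.5 (SD, n = 6) in conventional CD4 T-like cells, 202 ± 44.7 (n = 6) in CD8 T-like cells and 97.6 ± 22.5 (n = 6) in Treg-like cells, and the library ranges of these classes did not overlap. The lowest conventional CD4 T-like value (267 CPM, 2FF) and the highest CD8 T-like value (265 CPM, anti-PD-L1) nearly met, however. Migratory dendritic-like cells came next at 7.75 ± 3.97 CPM (n = 6), and the other 8 classes had means of 1.63 to 5.26 CPM whose ranges overlapped one another in order. The 148 gamma-delta T-like cells, too few per library, held 74 UMIs, or 95.6 CPM (exact Poisson 95% interval 75.1 to 120). Among 73 keratin-positive, Ptprc-negative cells no Pdcd1 UMI was found, which allows up to 2.72 CPM.

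At least 1 Pdcd1 UMI was seen in 69.1% of conventional CD4 T-like cells (Clopper-Pearson 95% interval 67.1 to 71.1), 59.95% of CD8 T-like cells (58.9 to 61.0) and 35.8% of Treg-like cells (33.1 to 38.4). The share in neutrophil-like cells, which should lack the receptor, was 0.666%. This pooled share leans on the control library, which held 2855 of the 4356 cells. Pdcd1 in neutrophil-like cells was lowest there (0.633 CPM) and highest with anti-PD-L1 (10.2 CPM), so the background in treated libraries can be higher. The classes differ in depth, with a median of 2547 to 3937 UMIs in neutrophil-like and 6012 to 8096 in CD8 T-like cells, so each cell was also thinned to 1000 UMIs. The shares were then 25.1%, 18.5% and 8.97% against 0.205% in neutrophil-like cells, in the same order.

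In CD8 T-like cells the level of Pdcd1 was 147 CPM in control, 179 with 2DG, 218 with 2FF, 265 with anti-PD-L1, 235 with 2DG plus anti-PD-L1 and 171 with 2FF plus anti-PD-L1. The control library was lowest and the anti-PD-L1 library highest, and the 2 combinations lay between. The log2 ratio of CPM + 5 over control was 0.28 for 2DG (counting interval of the ratio, taken without the pseudocount, 0.03 to 0.55), 0.56 for 2FF (0.33 to 0.83) and 0.83 for anti-PD-L1 (0.61 to 1.11). The control value rests on 136 UMIs in 120 cells, of which 5 cells held 27.2% (1.99% to 3.41% in treated libraries). Without the 5 highest cells of each library, a reading added after the data had been seen, control was 116 CPM and the treated libraries 166 to 261 CPM. The 5 cells are a larger part of 120 control cells than of the 1146 to 2054 in a treated library, so this reading lowers control more. Against the anti-PD-L1 library, the ratio was -0.17 (-0.25 to -0.10) with 2DG added and -0.62 (-0.72 to -0.55) with 2FF added. Adding the antibody to 2DG gave 0.39 (0.31 to 0.48) and adding it to 2FF gave -0.35 (-0.44 to -0.27). None of the 7 ratios reached 1, a 2-fold difference. In these cells a fold that large was met by 2.6% of genes with at least 50 UMIs for 2DG over control, 3.09% for 2FF over control, 3.3% for anti-PD-L1 over control, 0.685% and 0.475% for 2DG and 2FF added to the antibody, and 0.961% and 0.193% for the antibody added to 2DG and 2FF. Summed markers of classical monocytes stood at 964 CPM in the control library's CD8 T-like cells and 479 to 664 CPM in the treated ones, and the part of such RNA in the ratios was not tested.

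Within CD8 T-like cells, those with a UMI of Havcr2 (TIM-3, a receptor of exhausted T cells) had a mean of 227 CPM of Pdcd1 (179 to 301 over 6 libraries). The value was 201 CPM (161 to 226, 5 libraries) in cells with neither Havcr2 nor Tcf7. Cells with Tcf7, the transcription factor TCF-1 of stem-like and naive T cells, and no Havcr2 had 86.6 CPM (63.8 to 117, 5 libraries), a range that lay below those of both other states. These gates were set after the data had been seen and, since detection of a gene rises with depth, they also sort cells by depth. Cycling cells with both Mki67 and Top2a had 187 CPM (138 to 258, 5 libraries) and the rest 209 (145 to 267, 6 libraries), so these overlapped. In the Havcr2 state the library order of the whole class was kept at its ends, from 179 CPM in control to 301 CPM with anti-PD-L1.

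Conventional CD4 T-like cells had 290 CPM of Pdcd1 in control, 277 with 2DG, 267 with 2FF, 342 with anti-PD-L1, 351 with 2DG plus anti-PD-L1 and 312 with 2FF plus anti-PD-L1. The 3 libraries without the antibody were lower than the 3 with it, although 7 ratios lay between -0.13 and 0.34. The intervals of 2DG over control (-0.26 to 0.13) and 2FF over control (-0.32 to 0.09) included 0. Cells with Eomes or Gzmk, genes of cytotoxic CD4 T cells, had 284 CPM (177 to 367) and those without them 298 CPM (219 to 371). Treg-like cells had 124, 122, 72.5, 98.9, 94.6 and 73.4 CPM in the same order of libraries, so both libraries given 2FF were lowest. The ratio of 2FF over control was -0.73 (-1.29 to -0.26), from 58 and 79 UMIs.

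**Figure D2:**
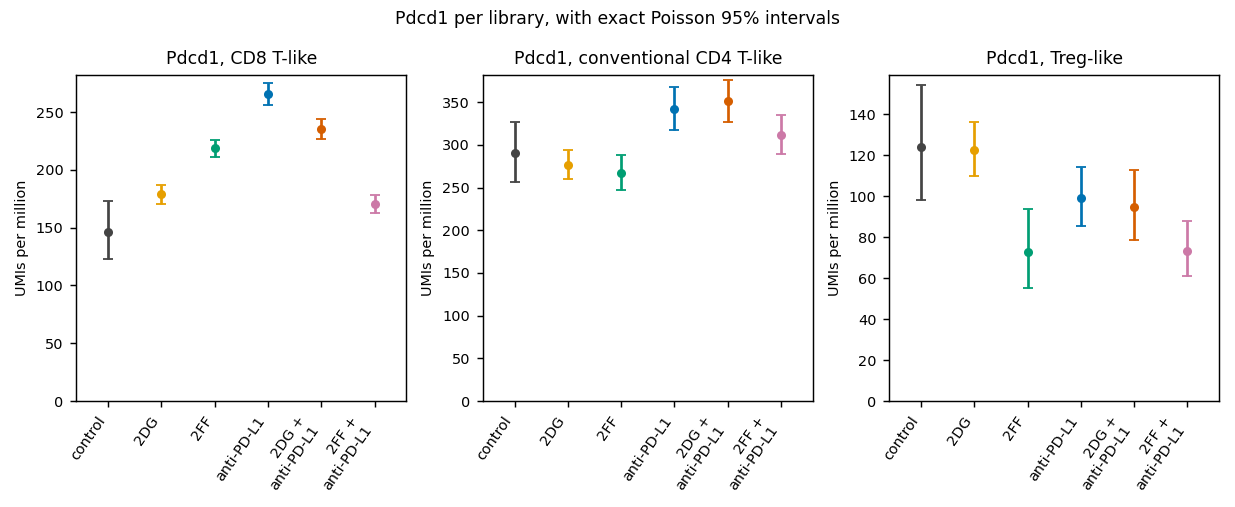
Pdcd1 per library in the 3 T cell classes, in CPM of the class, with exact Poisson 95% intervals as bars (counting error only). In CD8 T-like cells the points run from 147 in control to 265 with anti-PD-L1, and conventional CD4 T-like cells stay between 267 and 351.

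In the control library CD8 T-like cells contributed 18.2% of the Pdcd1 UMIs and conventional CD4 T-like cells 36.8%. In the treated libraries CD8 T-like cells contributed 44.1% to 65.4%. Shares of this kind follow the makeup of a library as well as the level per cell, and they are shown for all 5 genes in the plot of the classes that held each gene's UMIs.

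**Figure D3:**
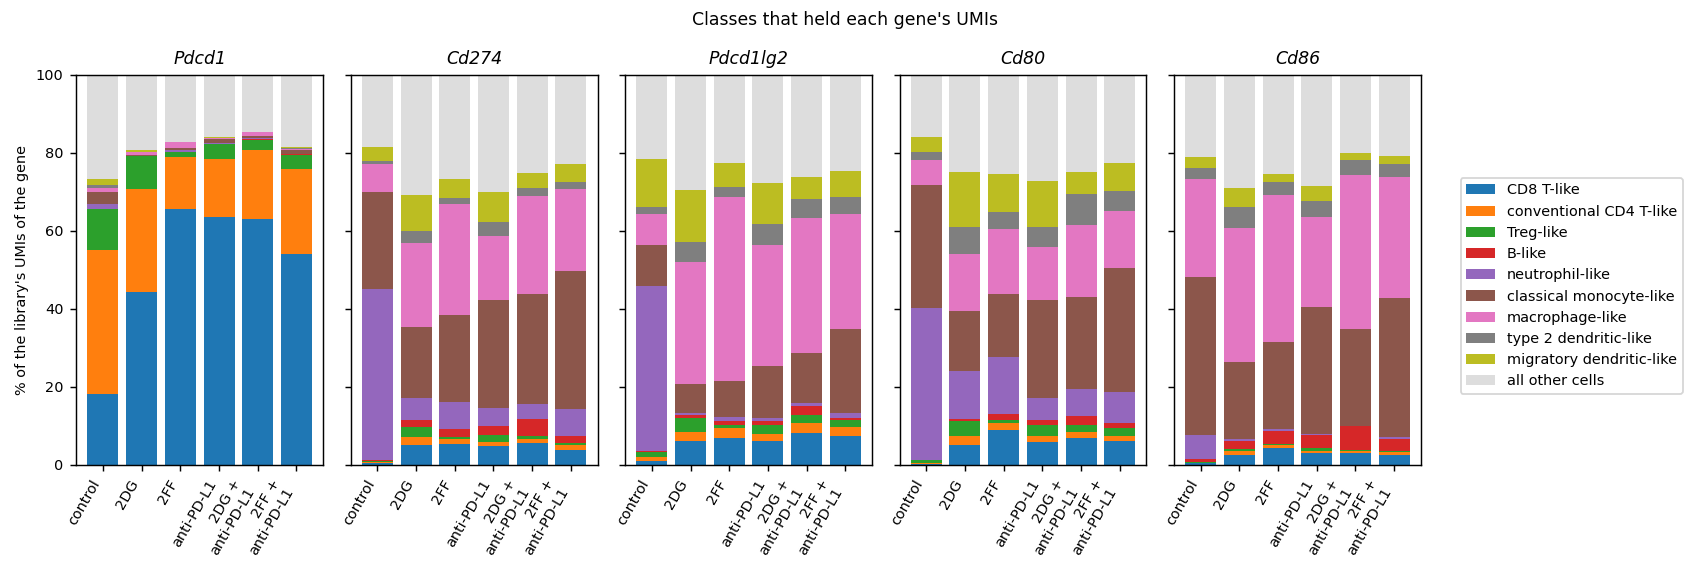
Share of each gene's UMIs in each library (% of all UMIs of the gene in cells that passed) that lay in each class, as stacked bars. Neutrophil-like cells held 43.9% of Cd274, 42.2% of Pdcd1lg2 and 38.8% of Cd80 UMIs in control and far smaller shares in the 5 treated libraries.

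Cd274, the widely made ligand, was highest in migratory dendritic-like cells (1656 CPM ± 356, SD, n = 6), the mature dendritic cells that carry antigen to lymph nodes, and in neutrophil-like cells (1547 ± 423, n = 6). These ranges overlapped each other but not those of the next class. Classical monocyte-like (627 ± 164), non-classical monocyte-like (525 ± 122), type 2 dendritic-like (495 ± 98.3), macrophage-like (490 ± 147), B-like (431 ± 100) and, over 4 libraries, type 1 dendritic-like cells (422 ± 134) formed a run of overlapping neighbors. T and NK classes had lower means, with 217 ± 29.5 in Treg-like (a range that overlapped that of type 1 dendritic-like cells), 161 ± 38.1 in conventional CD4 T-like, 131 ± 20.4 in CD8 T-like and, over 5 libraries, 106 ± 40.5 CPM in NK-like cells. At least 1 UMI was present in 94.9% of migratory dendritic-like and 71.2% of neutrophil-like cells against 25.8% of NK-like cells, and after thinning in 67.6%, 52.2% and 7.07%.

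Tumor cells short of 2 keratin markers, or with a Ptprc UMI, would be missed by the gate. The Leiden cluster named after the keratin-positive cells held 93 cells. The 73 keratin-positive cells are the only candidates for tumor cells that the gate gives, and with 2 of their keratin markers required they are not named further. They held 127 Cd274 UMIs in 21 cells, or 93.5 CPM (78.0 to 111), of which 47 UMIs came from the 2FF library, where they stood at 394 CPM against 0 to 226 CPM in the other libraries. In the 2FF library 13 of the 22 keratin-positive cells lay near a cut of the gate, and their median was 1862 UMIs. All 73 together held 2 UMIs of Pdcd1lg2, 3 of Cd80 and 1 of Cd86, although they were deep cells in 4 of 6 libraries.

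In macrophage-like cells Cd274 was 281 CPM in control, 435 with 2DG, 674 with 2FF, 400 with anti-PD-L1, 529 with 2DG plus anti-PD-L1 and 622 with 2FF plus anti-PD-L1. Control was lowest, and both libraries given 2FF were highest. The log2 ratio over control was 0.62 for 2DG (0.57 to 0.69), 1.25 for 2FF (1.21 to 1.32) and 0.50 for anti-PD-L1 (0.44 to 0.58), so 1 of 3 passed 2-fold. Adding 2DG to the antibody gave 0.40 (0.35 to 0.46) and adding 2FF gave 0.63 (0.58 to 0.69). The antibody added to 2DG gave 0.28 (0.23 to 0.34) and added to 2FF -0.12 (-0.16 to -0.08). In macrophage-like cells 2-fold was met by 2.14% of genes for 2DG over control, 3.66% for 2FF over control and 2.18% for anti-PD-L1 over control, by 1.16% and 0.746% for 2DG and 2FF added to the antibody, and by 0.921% and 0.4% for the antibody added to 2DG and 2FF. Neutrophil markers summed to 432 CPM in the control macrophage-like cells and 75.8 to 148 CPM in the treated ones, and T cell markers to 11.3 against 17.1 to 58.3 CPM. Classical monocyte markers summed to 2066 CPM in the control cells and 1258 to 1667 CPM in the treated ones. The part of these lists in the ratios of Cd274, and in those of Pdcd1lg2 given below, was not tested.

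Classical monocyte-like cells had 447 CPM of Cd274 in control, 522 with 2DG, 827 with 2FF, 497 with anti-PD-L1, 660 with 2DG plus anti-PD-L1 and 807 with 2FF plus anti-PD-L1, with the same library lowest and the same pair of libraries highest as in macrophage-like cells. In monocytes the median of all genes lay 0.15, 0.11 and 0.13 log2 units above control for 2DG, 2FF and anti-PD-L1. The ratios of Cd274 were 0.22, 0.88 and 0.15, so only that of 2FF stood clear of this shift. In neutrophil-like cells Cd274 was 1269, 1045, 1955, 1305, 1578 and 2131 CPM from control to 2FF plus anti-PD-L1, again with the libraries given 2FF on top and 2DG lowest. In migratory dendritic-like cells it was 1482, 1442, 1714, 1379, 1576 and 2342 CPM, and the 2FF plus anti-PD-L1 library was highest. Over the 11 classes that could be compared, 2FF over control gave a ratio above 0 in 10, with 9 intervals above 0 and a median of 0.67. For 2DG over control 6 of 11 were above 0 with a median of 0.22, and for anti-PD-L1 8 of 11 with a median of 0.15. These 3 comparisons share the control library, so they are not independent of one another. Nor are the 11 classes of a comparison, which come from the same pair of mice. The same tally over all genes was not computed, so these counts have no background. Among the classes below 0 for 2DG were CD8 T-like (-0.30) and neutrophil-like cells (-0.28). In CD8 T-like cells a few control cells held much of the Cd274, and in neutrophil-like cells the sign differed within a cluster. Both are given under the flagged results.

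Cells were also split by 6 interferon-induced genes that exclude the 5 studied here (Isg15, Ifit1, Ifit2, Ifit3, Rsad2 and Cxcl10), a split chosen after the data had been seen. Macrophage-like cells with at least 3 of them had a mean of 767 CPM of Cd274 (583 to 1019) and the rest 420 CPM (243 to 575). In classical monocyte-like cells the values were 975 CPM (830 to 1160) and 511 CPM (402 to 706), and in neutrophil-like cells 2374 CPM (1744 to 3093) and 1181 CPM (776 to 1449). The interferon state was higher within each of 6 libraries in all 3 classes. It took up 10.4% of macrophage-like cells in control and 14.1% to 24.3% in treated libraries, and 10.1% of classical monocyte-like cells in control and 16.8% to 39.6% in treated ones. The cut runs through a continuum, with 13.8% to 40.2% of a class's cells at 2 or 3 of the genes. Among macrophage-like cells with fewer than 3, Cd274 was 243 CPM in control and 364 to 575 CPM in treated libraries. The part of the interferon state in the ratios was not tested.

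**Figure D4:**
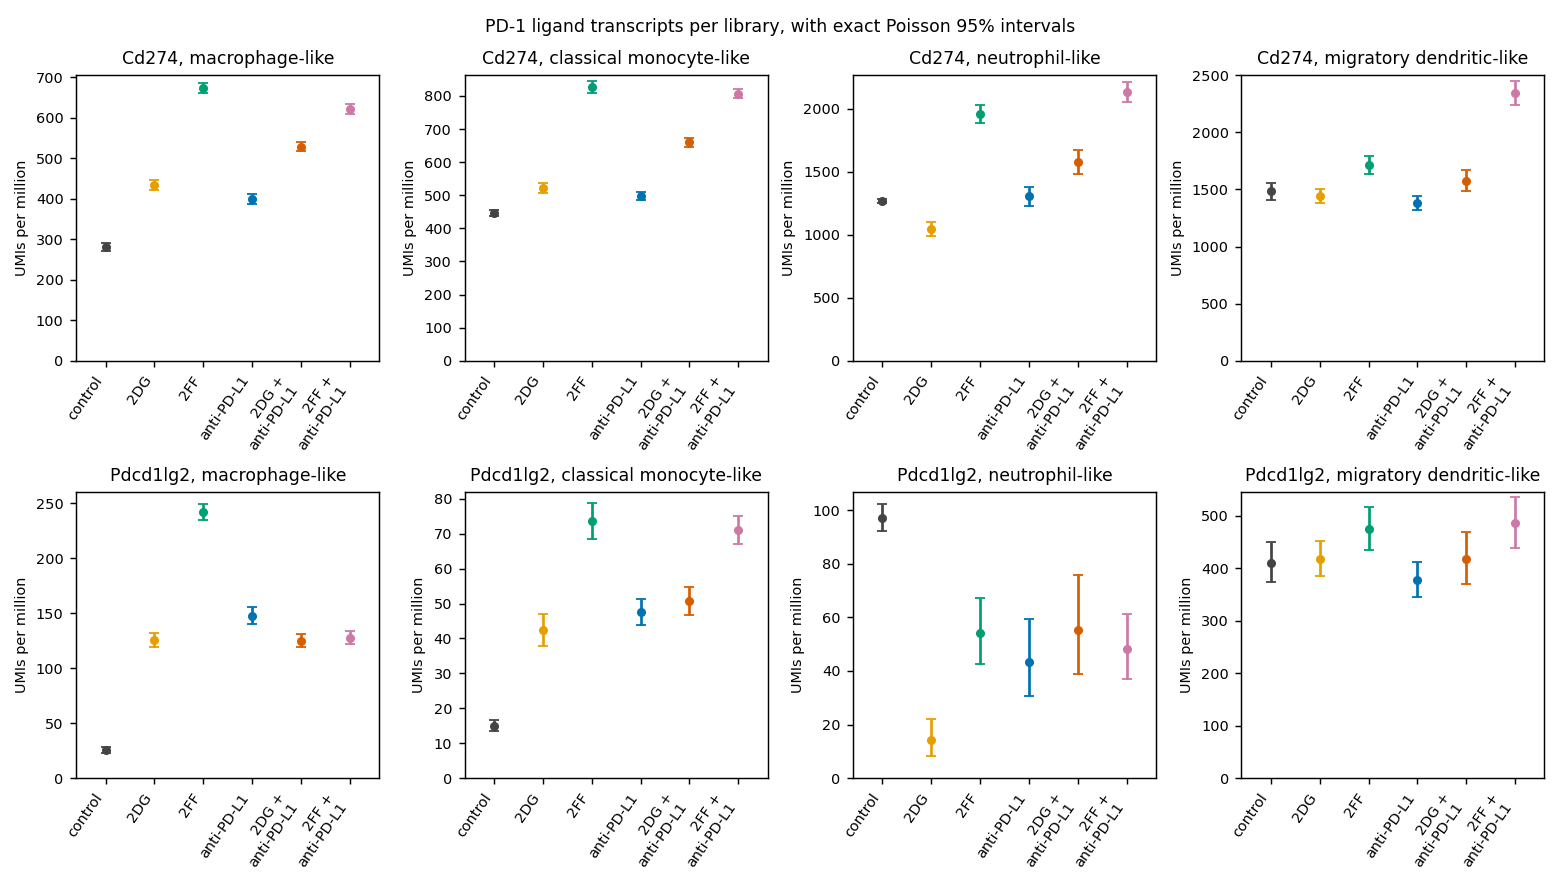
Cd274 (upper row) and Pdcd1lg2 (lower row) per library in 4 myeloid classes, in CPM of the class, with exact Poisson 95% intervals as bars (counting error only; each panel has its own axis from 0). Pdcd1lg2 in macrophage-like cells stands at 25.4 in control and at 125 to 242 in the treated libraries, and the reverse order of control and treated is seen in neutrophil-like cells.

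Pdcd1lg2, the ligand of narrower range, was highest in migratory dendritic-like cells at 430 CPM ± 41.2 (SD, n = 6), above the range of every other class. Type 1 dendritic-like (166 ± 97.9, n = 4), type 2 dendritic-like (153 ± 50.2, n = 6) and macrophage-like cells (132 ± 68.9, n = 6) overlapped. Treg-like cells had 68.3 ± 9.71 CPM and each class further down overlapped the next, to 16.3 ± 4.57 in non-classical monocyte-like cells. Pdcd1lg2 UMIs were seen in 76.2% of migratory dendritic-like and 38.8% of macrophage-like cells and in 10.4% of NK-like cells, or 28.2%, 10.9% and 2.02% after thinning.

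In macrophage-like cells Pdcd1lg2 was lower in control than in every treated library. It was 25.4 CPM in control (22.6 to 28.5), 125 with 2DG (119 to 132), 242 with 2FF (234 to 249), 148 with anti-PD-L1 (140 to 156), 125 with 2DG plus anti-PD-L1 (119 to 131) and 128 with 2FF plus anti-PD-L1 (122 to 134). No treated library came near the control value, and 2FF alone was highest. The log2 ratio of CPM + 5 over control was 2.10 for 2DG, 3.02 for 2FF and 2.33 for anti-PD-L1, and without the pseudocount 2.30 (2.12 to 2.49), 3.25 (3.08 to 3.43) and 2.54 (2.36 to 2.73), all past 2-fold. The combinations stood below the antibody alone by little, at -0.24 for 2DG added and -0.20 for 2FF added. The antibody added to 2DG gave -0.01 (-0.11 to 0.09) and added to 2FF -0.90 (-1.003 to -0.84). Shares of cells with a UMI were 15.3% in control and 35.8% to 53.2% in the treated libraries, and after thinning 2.51% and 9.35% to 16.9%.

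The macrophage class was also read by state and by cluster, both chosen after the data had been seen. Cells with fewer than 3 of the 6 interferon-induced genes had 23.6 CPM in control and 114 to 235 CPM in treated ones, and cells with at least 3 had 42.0 against 141 to 265 CPM. The Leiden cluster that held 46.0% of the control library's macrophage-like cells held 11.4% to 22.8% of the treated ones, and within it Pdcd1lg2 was 18.5 CPM in control and 43.5 to 146 CPM in treated libraries. In that cluster Cd274 was 173 CPM in control and 249 to 319 CPM in treated libraries, so its 2FF library was under 2-fold there. A smaller cluster held 11.6% of the control's cells and 7.52% to 13.3% of the treated ones. There Cd274 was 437 CPM in control and 443 to 736 CPM in treated libraries, and Pdcd1lg2 was 36.8 and 61.5 to 177 CPM. Another cluster held 31.6% to 57.7% of the treated cells of a library and 3.44% of the control's. Its treated cells had 161 to 320 CPM of Pdcd1lg2 and 510 to 812 CPM of Cd274, and control had too few cells there for a level. The cluster with 21.6% of the control's cells held 2.48% to 5.91% of the treated ones. There Pdcd1lg2 was 30.2 CPM in control, 64.1 with anti-PD-L1 and 62.7 with 2FF plus anti-PD-L1. Cd274 was 450, 561 and 517 CPM in the same order, and the other treated libraries had under 50 cells there. The 64 control cells with both Spp1 and Gpnmb, genes of lipid-laden tumor macrophages, had 30.4 CPM of Pdcd1lg2, and treated libraries held too few such cells to compare.

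In classical monocyte-like cells Pdcd1lg2 was 14.97 CPM in control, 42.3 with 2DG, 73.5 with 2FF, 47.5 with anti-PD-L1, 50.6 with 2DG plus anti-PD-L1 and 71.1 with 2FF plus anti-PD-L1. The ratios over control, 1.24, 1.98 and 1.39, were past 2-fold and well above the shift of all genes. In this class 2-fold was met by 6.3% of genes for 2DG over control, 6.02% for 2FF and 5.69% for anti-PD-L1, by 0.695% and 0.622% for 2DG and 2FF added to the antibody, and by 0.89% and 0.364% for the antibody added to 2DG and 2FF. Neutrophil markers summed to 848 CPM in control monocytes and 147 to 464 CPM in treated ones, and T cell markers to 8.66 against 21.1 to 49.7 CPM, and their part was not tested. One cluster held 55.5% of the control monocytes and 3.29% to 9.37% of the treated ones, and within it Pdcd1lg2 was 13.04 CPM in control and 24.7 to 51.1 CPM in treated libraries. Another held 22.3% and 27.4% to 35.8%, with 16.1 CPM in control and 62.3 to 108 CPM in treated libraries. A further cluster held 11.7% and 23.8% to 37.6%. There Pdcd1lg2 was 4.86 CPM in control and 2.77 to 6.15 CPM in treated libraries, on both sides of control (12 to 20 UMIs in each library). Type 2 dendritic-like cells also had less Pdcd1lg2 in control, 61.9 CPM against 139 to 201 CPM, and type 1 dendritic-like cells 68.1 CPM against 113 to 291 CPM in the 3 libraries that could be compared with it. Migratory dendritic-like cells had 410 CPM in control and 378 to 486 CPM in treated libraries, with ratios over control of 0.02 (-0.15 to 0.20), 0.21 (0.03 to 0.39) and -0.12 (-0.31 to 0.07).

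In neutrophil-like cells Pdcd1lg2 was 97.3 CPM in control, 14.02 with 2DG, 54.0 with 2FF, 43.3 with anti-PD-L1, 55.2 with 2DG plus anti-PD-L1 and 48.1 with 2FF plus anti-PD-L1. Control was above every treated library, with ratios of -2.43 (-3.55 to -2.13), -0.79 (-1.20 to -0.52) and -1.08 (-1.67 to -0.71) for 2DG, 2FF and anti-PD-L1. The treated values rest on 18 to 78 UMIs each, and the share of all genes past 2-fold was not computed for neutrophil-like cells. Control and treated neutrophils lay mostly in different Leiden clusters, one with 63.6% of the control cells and 10.6% to 33.7% of the treated, and another with 27.0% and 51.7% to 80.6%. Within the second, Pdcd1lg2 was 23.3 CPM in control and 14.05 to 51.4 CPM in treated libraries (7 to 25 UMIs each), on both sides of control, and within the first it was 127 CPM in control and 113 CPM in each of the 2 treated libraries with at least 50 cells there. Cd274 within the second was 387 CPM in control and 1125 to 2077 CPM in treated libraries, so that the 2DG library, lowest in the whole class, was above control there. Within the first, Cd274 was 1645 CPM in control, 3225 CPM with anti-PD-L1 and 4348 CPM with 2FF plus anti-PD-L1. These cluster values were added after the data had been seen, and clusters were made from all genes. Their classical monocyte markers summed to 748 CPM in control and 1377 to 2068 CPM in treated libraries, and the part of this in the ratios was not tested. Neutrophil-like cells held 42.2% of the control library's Pdcd1lg2 UMIs and at most 1.1% elsewhere, whereas macrophage-like cells held 7.9% in control and 29.7% to 47.2% elsewhere.

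The 2 ligands were often found in the same cells. Of migratory dendritic-like cells with Cd274, 79.2% (75.9 to 82.3) also had Pdcd1lg2, against 7 of the 35 cells without Cd274 (interval 8.44% to 36.9%), but the latter were shallow (median 2407 against 9233 UMIs). Depth differed less in classical monocyte-like cells (a median of 7738 UMIs with Cd274 and 7078 without), where Pdcd1lg2 was seen in 19.8% of cells with Cd274 and 5.18% without, and in neutrophil-like cells (3652 with and 3315 without), where it was 27.3% and 5.90%. In macrophage-like cells the shares were 46.5% and 19.2%. These pooled shares also follow the libraries, since both transcripts were low in control macrophages.

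**Figure D5:**
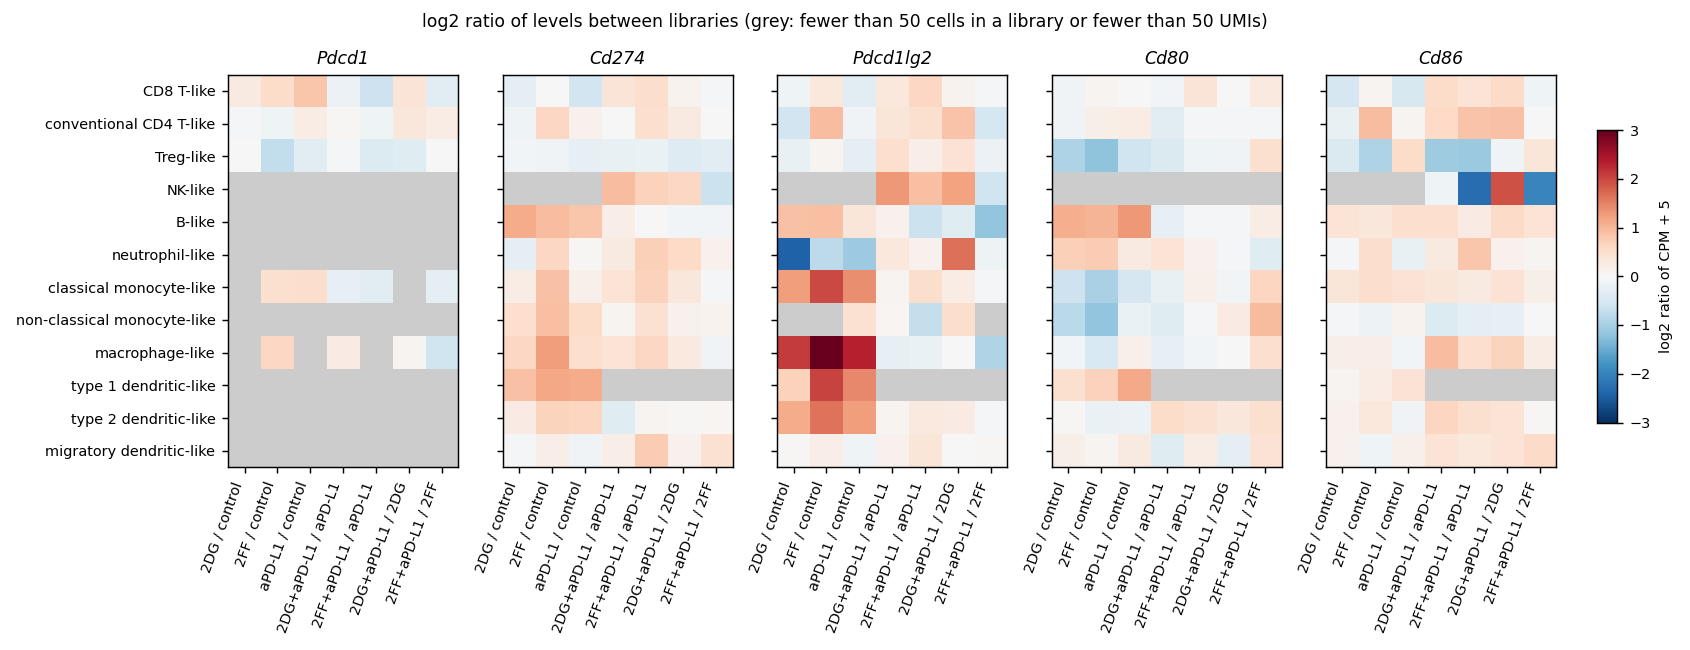
log2 ratio of CPM + 5 between libraries for each gene (panels), class (rows) and comparison (columns; aPD-L1 is anti-PD-L1), on a color scale that ends at -3 and 3. Grey marks fewer than 50 cells in a library or fewer than 50 UMIs in the pair; Pdcd1lg2 over control stands at 2.10, 3.02 and 2.33 in macrophage-like cells and at -2.43, -0.79 and -1.08 in neutrophil-like cells for 2DG, 2FF and anti-PD-L1.

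Cd80, which binds CD28, CTLA-4 and PD-L1, was highest in migratory dendritic-like (778 CPM ± 119, n = 6) and neutrophil-like cells (690 ± 138, n = 6), whose ranges overlapped. Type 2 dendritic-like cells followed at 354 ± 60.4, apart from both neighbors, and then classical monocyte-like (174 ± 43.1), Treg-like (136 ± 46.3), non-classical monocyte-like (134 ± 39.6), type 1 dendritic-like (122 ± 41.1, n = 4) and macrophage-like cells (108 ± 15.1), all overlapping in order. NK-like cells were lowest at 9.92 ± 5.03 CPM (n = 5), and 2.72% of them had a UMI against 85.4% of migratory dendritic-like cells (0.582% and 44.2% after thinning).

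Cd80 was higher in control than in any treated library in 3 classes. How many classes place control on top for all genes was not computed, so this count has no background. Classical monocyte-like cells had 247 CPM in control and 158, 122, 174, 149 and 195 CPM in the treated libraries from 2DG to 2FF plus anti-PD-L1. The ratios over control were -0.63, -0.98 and -0.49 for 2DG, 2FF and anti-PD-L1, none past 2-fold, and they are larger in size once set against the upward shift of all genes. Treg-like cells had 223 CPM in control and 93.8 to 145 CPM in treated libraries, and non-classical monocyte-like cells 185 and 78.3 to 159 CPM. In control 5 Treg-like cells held 58 of 142 Cd80 UMIs, and 5 non-classical monocyte-like cells 39 of 78. Without the 5 highest cells of each library, Treg-like cells had 146 CPM in control against 64.1 to 123 CPM, and non-classical monocyte-like cells 104 CPM against 64.2 to 139 CPM, so that control was no longer highest in the latter. Control had the fewest cells in both classes (81 and 55), so 5 cells are a larger part of it and this reading does not settle the order. In neutrophil-like cells control was lowest instead, at 489 CPM against 586 to 839 CPM. In macrophage-like cells, where the PD-1 ligands differed from control, Cd80 was 113 CPM in control and 81.1 to 125 CPM in treated libraries, on both sides of it. In migratory dendritic-like cells it ranged from 651 CPM with 2DG plus anti-PD-L1 to 981 CPM with 2FF plus anti-PD-L1.

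Cd86 had overlapping levels in 7 antigen-presenting classes. Means were 966 CPM ± 165 in type 2 dendritic-like, 957 ± 179 in migratory dendritic-like, 907 ± 229 in macrophage-like, 795 ± 190 in B-like, 753 ± 140 in classical monocyte-like, 628 ± 61.4 in non-classical monocyte-like and, over 4 libraries, 531 ± 71.0 in type 1 dendritic-like cells, each overlapping the next. Neutrophil-like cells stood apart below them at 151 ± 38.2 CPM, unlike for Cd274 and Cd80, where they were near the top. In NK-like cells, with a mean of 38.6 CPM, the 5 cells with the most Cd86 held 44.7% to 100% of its UMIs in each library, so the ratios of that class describe a few cells.

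In macrophage-like cells Cd86 was 740 CPM in control, 833 with 2DG, 854 with 2FF, 700 with anti-PD-L1, 1325 with 2DG plus anti-PD-L1 and 992 with 2FF plus anti-PD-L1, so both combinations were above each single agent. 2DG added to the antibody gave 0.92 (0.88 to 0.96) and 2FF added 0.50 (0.46 to 0.54), while the antibody added to 2DG gave 0.67 (0.63 to 0.71) and added to 2FF 0.21 (0.18 to 0.25). None passed 2-fold. The 2DG plus anti-PD-L1 library was also highest among the 6 in type 2 dendritic-like (1206 CPM), migratory dendritic-like (1213 CPM), B-like (1097 CPM) and classical monocyte-like cells (923 CPM), and lowest in non-classical monocyte-like cells (543 CPM). B-like cells had the least Cd86 in control, 551 CPM, and 694 to 1097 CPM in treated libraries.

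The pathway around these genes was read from a list of 46 genes in 7 groups. The receptors of the B7 molecules were T cell transcripts, with Ctla4 highest in Treg-like cells (2149 CPM, 1493 to 2861) and Cd28 in conventional CD4 T-like cells (623 CPM, 553 to 712). Tox, a transcription factor of exhausted and helper T cells, was also highest there (2855 CPM, 2214 to 3387). In CD8 T-like cells at most 1 listed gene per comparison was past 2-fold, namely Cd160 with 2FF over control (46.3 CPM in control and 104 CPM with 2FF, among 41 genes with enough UMIs) and Icos with the antibody added to 2DG (190 and 495 CPM, among 42). The other 5 comparisons had 0 listed genes past 2-fold, beside the background given above. That background was 3.09% for 2FF over control and 0.961% for the antibody added to 2DG. Counts this small do not stand apart from it. These counts depend on the pseudocount. Over CD8 T-like, classical monocyte-like and macrophage-like cells together they were 8, 10 and 13 for the single agents over control, 0 and 1 for 2DG and 2FF added to the antibody, and 1 and 0 for the antibody added to 2DG and 2FF, and with a pseudocount of 1 they were 24, 24, 27, 3, 5, 2 and 3. The share of all genes past 2-fold was not computed with a pseudocount of 1, so the higher counts have no background.

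In macrophage-like cells 3 of 39 listed genes were past 2-fold for 2DG over control, 5 of 43 for 2FF and 3 of 41 for anti-PD-L1, all higher than control, beside 2.14%, 3.66% and 2.18% of all genes tested, either way. Of all genes tested, 104 of 11263, 167 of 11561 and 112 of 11149 were past 2-fold higher. Irf1 and Socs1 of the interferon route, a group in which 9 genes were tested, were past 2-fold in each comparison. Irf1, which activates Cd274 transcription, was 120 CPM in control and 258, 255 and 267 CPM with 2DG, 2FF and anti-PD-L1. Socs1, the feedback inhibitor of JAK kinases, was 13.5 CPM in control and 38.8, 46.3 and 35.9 CPM. The 3 comparisons share their control library, and the median ratio of the 9 genes was 0.38, 0.43 and 0.42 beside -0.03, -0.06 and -0.01 over all genes tested.

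Classical monocyte-like cells had 5 of 39, 4 of 41 and 10 of 43 listed genes past 2-fold over control, all higher, beside a background of 6.3%, 6.02% and 5.69% either way. Of all genes tested, 389 of 11177, 382 of 11277 and 432 of 11502 were past 2-fold higher. Irf1 was 120 CPM in control and 443, 463 and 435 CPM with 2DG, 2FF and anti-PD-L1. Jak2 passed with anti-PD-L1 only (181 and 393 CPM), while its ratios for 2DG and 2FF were 0.59 and 0.60. Some of the others are T cell genes, such as Ctla4 at 2.9 CPM in control and 12.5 to 12.9 CPM with single agents, and T cell markers were also higher in these treated monocytes, as given above. In the 4 comparisons of combinations the list gave 0 to 1 gene past 2-fold in both myeloid classes, the 1 being Irf4 in macrophage-like cells (12.6 CPM with the antibody and 2.7 CPM with 2FF added). Genes that handle PD-L1 protein, such as Cmtm6, which keeps it from degradation, had none past 2-fold in either myeloid class over control, out of 6 to 7 tested. Beside 2.14% to 6.3% of all genes, 0 among so few genes does not set this group apart.

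The genes whose log2 levels followed each of the 5 most closely were taken over the 12 classes (Pearson r, a description, since classes share libraries). Pdcd1 was followed by, among others, Tff1 (r = 0.990), Pde11a, Kcnmb4 and Themis. Cd274 was followed by Gm36043 (0.980), Atp6v0a1, Ogfrl1, Marcksl1 and Csf2rb, and Pdcd1lg2 by Arhgef40 (0.910), Procr, Rnf180, Ppfibp1 and Psme2. Cd80 was followed by Snx20 (0.923), Tctex1d2, D930030I03Rik, Cd274 (0.901) and Marcksl1, so that Cd274 and Cd80 stood in each other's company more than any other pair of the 5. Cd86 was followed by Ctsh (0.973), Ifi30, Cnpy3, Ly86 and Scpep1. The 2 PD-1 ligands had r = 0.498 with each other, although they lie side by side on the chromosome, and Pdcd1 had r = -0.553 with Cd274 and -0.609 with Cd86.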

How the data were processed

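Single-cell 3' libraries (10x) of 6 mice were measured. The authors deposited UMI counts per gene and barcode from Cell Ranger on mm10, as raw counts without normalization, filtered to cells by that program. The submitters' processing notes name version 3.1.0 and the study's methods a later version, and which of them made these counts is not settled here. Here, cells with at least 250 genes and at most 5% mitochondrial UMIs were gated cell by cell on marker genes (Python 3.11.15, scanpy 1.11.5), and UMIs were summed per library and class (CPM). Libraries held 61859753 to 73885214 UMIs. Cells that resembled simulated doublets (3573) were kept and removed in an alternative. The 5 genes, the lists and the gates were chosen with earlier results of these data known. With 1 library per group no test was made: levels carry exact Poisson, shares Clopper-Pearson and ratios exact conditional binomial 95% intervals. Ratios are log2 of CPM + 5 (pseudocount) for classes with at least 50 cells and genes with at least 50 UMIs in both libraries together, and 2-fold counts as past the fold. Ratio scripts were tested on simulated data. Named genes were the 5, the list of 46, and for each of the 5 the 5 genes most correlated over classes among those with at least 20 CPM in a class, gate markers left out. Some named genes are not reported here. Genes named for a state were chosen after values were seen. Alternatives changed filters, doublets, classes (Leiden clusters), markers, weighting, thinning to 1000 UMIs, centring and pseudocount.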

Additional observations from a re-analysis of the deposited data

Results flagged for a closer look

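In 12 cases, each a gene in a class with a mean of at least 20 CPM and an agent, the agent had a ratio of one sign over control and of the other sign when added to anti-PD-L1, with both counting intervals off 0. Each value compares 1 mouse with another, and the difference between the 2 ratios was not tested. All 5 genes were screened in every class with enough cells and UMIs. The share of all genes that change sign in this way was not computed, so the count of 12 has no background. Pdcd1 in CD8 T-like cells had 0.28 for 2DG over control and -0.17 for 2DG added to the antibody, and 0.56 and -0.62 for 2FF. Pdcd1lg2 in macrophage-like cells had 2.10 and -0.24 for 2DG and 3.02 and -0.20 for 2FF. For Cd274 this was seen with 2DG, at -0.30 and 0.39 in CD8 T-like, -0.28 and 0.27 in neutrophil-like and 0.25 and -0.36 in type 2 dendritic-like cells. Pdcd1lg2 had -0.58 and 0.37 with 2DG in conventional CD4 T-like cells and 0.91 and -0.65 with 2FF in B-like cells. Cd80 had -0.98 and 0.16 with 2FF in classical monocyte-like cells and 0.17 and -0.36 with 2DG in migratory dendritic-like cells. Cd86 in CD8 T-like cells had -0.51 and 0.54 with 2DG. Several of these rest on few cells. In the control CD8 T-like cells 5 of 120 held 51.1% of the Cd274 and 58.2% of the Cd86 UMIs, against 9.83% and 15.9% with 2DG. Without the 5 highest cells of each library, a reading added after the data had been seen, 2DG was above control for both (108 against 79.0 CPM of Cd274 and 61.9 against 47.3 CPM of Cd86). Those 5 are a larger part of 120 control cells than of 1328 cells with 2DG. The reading therefore lowers control more and does not settle the sign. Pdcd1lg2 in B-like cells, at 37.4 CPM with the antibody and 22.1 CPM with 2FF added, became 11.4 and 15.3 CPM in the same way. For Cd274 in neutrophil-like cells, the cluster that held 74.6% of the 2DG cells and 27.0% of the control cells had 387 CPM in control and 1325 CPM with 2DG, the other direction from the -0.28 of the whole class.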

How the results depend on the processing

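Among the 14 ratios of Pdcd1 in CD8 T-like and Cd274 in macrophage-like cells, none of 140 values under other settings changed sign and 25 moved beyond their counting interval. Thinning moved Pdcd1 to 0.56 (2DG over control), 0.89 (2FF over control) and -0.51 (2FF added to the antibody). Weighting cells equally gave -0.045 for 2DG and -0.51 for 2FF added to the antibody, and Leiden clusters gave -0.55 for the latter. For Cd274, clusters gave 1.005, 1.65 and 0.83 for 2DG, 2FF and anti-PD-L1 over control, 0.55 for 2DG added to the antibody and 0.38 for the antibody added to 2DG. Equal weighting gave 0.52 and 0.39 for 2DG and anti-PD-L1 over control, 0.48 for 2DG added, and 0.34 and -0.26 for the antibody added to 2DG and 2FF. Thinning gave 0.37, 1.15 and 0.31 over control, 0.49 and 0.73 for 2DG and 2FF added, and 0.43 for the antibody added to 2DG. A pseudocount of 20 gave 1.21 for 2FF over control, and centring gave 0.48 and 0.71 for 2DG and 2FF added.

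Pooled levels moved as follows. Pdcd1 in conventional CD4 T-like cells (304 CPM) was 321 without doublets, 332 by clusters, 319 with equal weights and 329 thinned. In migratory dendritic-like cells, Cd274 (1609) was 1641 without doublets and 1533 by clusters, Pdcd1lg2 (426) was 394 by clusters and 410 with equal weights, and Cd80 (779) was 810 without doublets, 753 by clusters, 802 with 1 marker more, 748 with equal weights and 733 thinned. Cd86 in type 2 dendritic-like cells (960) was 1067 by clusters and 919 with 1 marker more. Shares of cells with a UMI of Pdcd1, Cd274, Pdcd1lg2, Cd80 and Cd86 in these classes were 25.1%, 67.6%, 28.2%, 44.2% and 48.8% after thinning. Counts of listed genes past 2-fold over 3 classes (8, 10, 13, 0, 1, 1 and 0) were 24, 24, 27, 3, 5, 2 and 3 with a pseudocount of 1, a setting at which the share of all genes was not computed.

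Among ratios outside these 14 that were past 2-fold, Cd80 in B-like cells by clusters was -0.26 for 2DG and -0.085 for 2FF over control (-0.055 with equal weights), Cd86 in Treg-like cells by clusters was 0.11 for 2DG added to the antibody, and Cd86 in NK-like cells was 0.061 (no doublets) and 0.14 (clusters) for 2FF added to the antibody and 0.079 and 0.68 for the antibody added to 2FF. The cause was not tested. Of 310 values for 31 ratios past 2-fold, 253 stayed past it. Of all 3170 values for the 317 ratios outside the 14, 493 moved beyond the counting interval and 229 took the other sign, of which 8 were of ratios past 2-fold. No paired analysis was possible because each group is 1 library, and no replicate could be left out for that reason. At this depth, classes under 50 cells and genes under 50 UMIs allow no ratio.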
